A study of Mus musculus with 13 samples.

Results

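The non-irradiated submandibular gland was described from the 3 libraries labelled NonIR, out of 13 libraries in the series. They were chosen by their label alone, and the 10 libraries of irradiated glands were not used. The submandibular gland is a major salivary gland. The mice were of the strain given as CH3, were 1 year old, and gave tissue at day 300. No genotype or transgene is named. The labels' shared protocol speaks of a vector injected before irradiation, and the sources used here do not say whether NonIR mice received any. They also do not give the sex of the mice or say whether glands were pooled. The libraries are numbered as replicates without being tied to separate animals, so the spread below is between libraries and may be technical. With 1 group, levels and spread are described and nothing is tested.

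The gland is built from acinar cells, which make the mucins, enzymes and fluid of saliva, and from ducts, which modify that fluid. In rodents a duct segment, the granular convoluted tubule, stores growth factors and serine proteases of the tissue kallikrein family, and it is larger under androgen. Myoepithelial cells squeeze the acini, parasympathetic nerves drive fluid secretion through muscarinic receptors, and plasma cells in the stroma make the immunoglobulin A of saliva.

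Levels are given on 2 scales. CPM is the read count scaled to the library total and by TMM over the 3 libraries, and serves to compare libraries. TPM is the read count per kb of exon, scaled to the same total in each library, and serves to compare genes. Values are means ± SD (n = 3 libraries), or are given for NonIR 1, NonIR 2 and NonIR 3 in that order. The libraries held 13745798, 12662272 and 13221470 reads in genes. In bulk tissue, fewer cells of a type and less RNA per cell cannot be told apart.

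NonIR 1 stood apart from the other libraries. Of 6599 genes with a mean of at least 10 CPM, 526 (7.97%) had a ratio of highest to lowest library over 2, and NonIR 1 was the lowest in 486 of these. Between NonIR 2 and NonIR 3 alone, 44 genes had such a ratio, against 437 between NonIR 1 and NonIR 3 and 322 between NonIR 1 and NonIR 2. The 486 genes had a median exon length of 2017 bases and a median GC content of 52.6%, where all 6599 had 4513 bases and 48.8%. The biological coefficient of variation, edgeR's estimate of the spread between libraries beyond counting noise, was 0.209 over 12494 genes that passed a filter on low counts and 0.153 over 12656 genes without NonIR 1. The chi-square of the counts per degree of freedom was 59.3 for NonIR 1 with NonIR 2, 67.7 for NonIR 1 with NonIR 3 and 28.6 for NonIR 2 with NonIR 3, so no library is a second deposit of another. What part gene length, GC content or the tissue had in this was not tested.

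**Figure D1:**
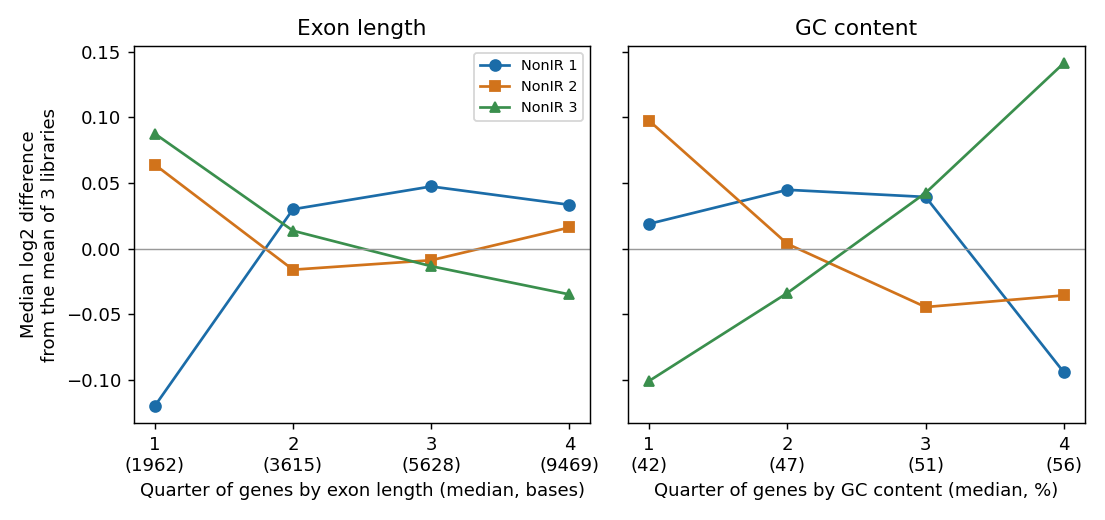
Median log2 difference of each library from the mean of the 3 libraries (y axis), in 4 bins of genes with a mean of at least 10 CPM, ordered by exon length in bases (left) or GC content in percent (right). Lines and markers are libraries. In the shortest genes NonIR 1 lies at −0.12, NonIR 2 at 0.06 and NonIR 3 at 0.09, and in the genes richest in GC NonIR 1 lies at −0.09 and NonIR 3 at 0.14.

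The 3 libraries had the same pattern of sex-linked transcripts, which is that of female tissue, although the sources do not give the sex. Xist, the RNA that silences an X chromosome, stood at 17.2, 18.3 and 15.5 CPM. Ddx3y, Kdm5d, Eif2s3y and Uty, of the Y chromosome, had 0 reads in each library, which allows up to 3 reads, or 0.197, 0.253 and 0.235 CPM.

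A few secretory genes held much of the RNA. Mucl2, Car6, Smgc and Prol1 together took 36.0%, 38.7% and 36.0% of the reads, and 48.7%, 47.8% and 47.1% of the level per kb. The 10 most read genes of each library held 43.1% (exact Clopper-Pearson 95% interval 43.09 to 43.15), 48.1% (48.05 to 48.10) and 46.8% (46.79 to 46.85) of its reads. These intervals, and the limits at 0 reads, describe counting error alone, because amplified reads without molecular identifiers do not each stand for a molecule. NonIR 2 and NonIR 3 reached 50% of their reads with 13 and 15 genes, while NonIR 1 needed 33. Of 48709 gene entries, 23400 had a read in some library, 11917 (24.5%) reached 1 CPM in every library, and 47 had a mean of at least 1000 CPM.

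**Figure D2:**
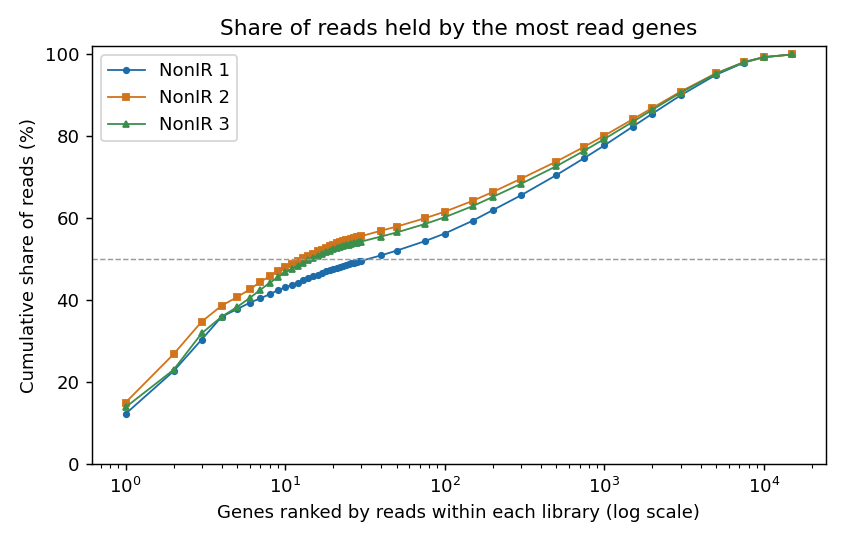
Cumulative share of reads in percent (y axis) held by genes ranked by reads within each library (x axis, log scale), with a line and marker for each library. The dashed line at 50% is reached at 13 genes in NonIR 2, 15 in NonIR 3 and 33 in NonIR 1.

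The windows just before the RefSeq start of the 6 marker genes are shown because these genes lead or mark the secretory cells. For Car6, Smgc and Klk1b26 the window lies inside the gene as the GENCODE annotation places it. Printed are 50 bases upstream of the RefSeq start on GRCm38.p6, 5′ to 3′ on the gene's strand, with TATAA and TTTAA in capitals.
Mucl2 (chr15:103899313-103899362, minus strand): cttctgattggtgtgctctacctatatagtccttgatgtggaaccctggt
Car6 (chr4:150201136-150201185, minus strand): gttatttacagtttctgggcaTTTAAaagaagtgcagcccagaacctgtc
Smgc (chr15:91838278-91838327, plus strand): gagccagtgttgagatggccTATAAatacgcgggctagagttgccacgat
Prol1 (chr5:88317262-88317311, plus strand): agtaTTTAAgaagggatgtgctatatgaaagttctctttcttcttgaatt
Klk1b26 (chr7:44012628-44012677, plus strand): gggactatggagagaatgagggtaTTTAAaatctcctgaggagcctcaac
Egf (chr3:129755323-129755372, minus strand): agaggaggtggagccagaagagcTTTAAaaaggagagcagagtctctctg

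The TATA box is a promoter element that positions the start of transcription in many tissue genes. TATAA is its core, TTTAA is a related run of letters, and a match to either is not shown to be such an element. Counted from the start site, the motif begins at −29 in Car6, −30 in Smgc, −46 in Prol1, −26 in Klk1b26 and −27 in Egf, and neither form is in the Mucl2 window. Other runs, such as TATATA in the Mucl2 window and TATAT in the Prol1 window, were not marked or counted. Of the 25 genes with the highest level per kb, 22 had an entry in the RefSeq table, and 16 of these windows (72.7%) held TATAA or TTTAA on the gene's strand. Among windows of equal length from 19577 genes of the count table, 9.90% did. On both strands together the shares were 72.7% and 12.9%. By motif on the gene's strand, TATAA was in 8 of the 22 and in 5.51% of all, and TTTAA in 9 of the 22 and in 4.60% of all. TTTAA overlaps its own reverse complement in the run TTTAAA. Of the 25 genes, 8 are kallikreins and 3 are secretoglobins. Windows of related genes may be alike, so the 22 windows are not separate instances. The motifs were chosen after promoters of these genes had been read, so the shares are a description, and use of the sites was not measured.

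The most read gene differed between libraries: it was Car6 in NonIR 1, Smgc in NonIR 2 and Mucl2 in NonIR 3. Mucl2, a mucin-like secretory protein gene, stood at 69503, 126293 and 144071 CPM. It was lowest in NonIR 1. Car6, the secreted carbonic anhydrase of saliva, stood at 110659, 84762 and 92325 CPM, with NonIR 1 the highest. Prol1, a proline-rich salivary mucin gene also known as Muc10, stood at 50014, 41708 and 42017 CPM, again with NonIR 1 the highest. Smgc, which encodes a secreted mucin-like glycoprotein of the gland, stood at 93936, 160751 and 94819 CPM, so that NonIR 2 alone was high.

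Per kb of exon, Mucl2 led at 217142 ± 48174 TPM, followed by Car6 at 111384 ± 33633, Prol1 at 80623 ± 21910.1 and Smgc at 69938 ± 19164 TPM. The values of the last 3 overlapped between libraries, but the genes can be compared within each library. Car6, at 150079, 89171.5 and 94901 TPM, was above Prol1, at 105915, 68514 and 67440 TPM, in every library. Smgc, at 67846, 90062 and 51905 TPM, was above both in NonIR 2 alone. The ratio of Mucl2 to Car6 per kb was 1.09, 2.59 and 2.71, nearly level in NonIR 1 and well above 1 in the other libraries. Smgc shares its locus with the mucin gene Muc19. Of the 50-base windows of the longest Smgc transcript, 98.5% occur in no other gene, and the rest also occur in Muc19.

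Among the 25 genes with the highest level per kb, 8 were tissue kallikreins and 3 were secretoglobins. The 25 made up 70.4% of all TPM, and 11 of them lie on chromosome 7. The 25th, the tetraspanin gene Tspan12, stood at 2682 ± 522 TPM, and the gene just below, the kallikrein Klk1b21, at 1795 ± 398 TPM. By reads instead of level per kb, 22 of the 25 were also among the 25 highest. In CPM, NonIR 1 was the lowest library for 19 of the 25, where it was lowest for 37.6% of the 6599 genes.

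**Figure D3:**
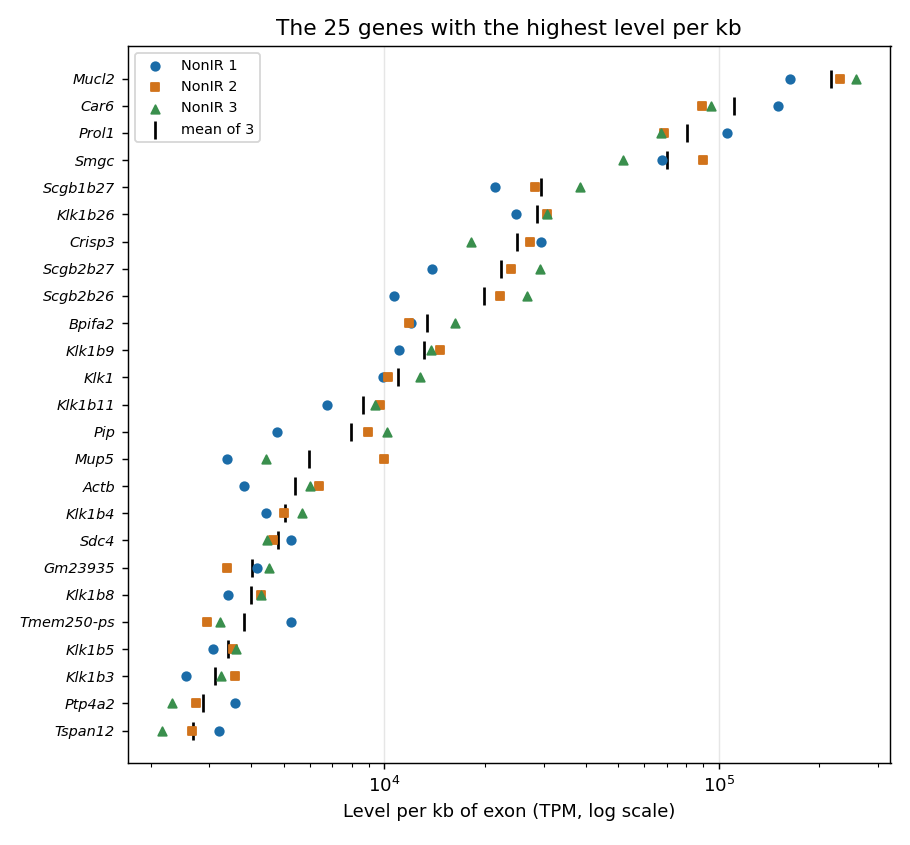
Level per kb of exon in TPM (x axis, log scale) of the 25 genes with the highest mean (y axis), with a marker for each library and a black tick for the mean of the 3. Mucl2, Car6, Prol1 and Smgc stand above the rest, and the next gene, Scgb1b27, has a mean of 29389 TPM.

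Secretoglobins of the androgen-binding protein family are small secreted proteins that pair as 2 chains, and 3 of them were among the 25. Scgb1b27 stood at 8725, 14852 and 20756 CPM, Scgb2b27 at 8855, 19620 and 24577 CPM and Scgb2b26 at 2515, 6736 and 8314 CPM. All 3 were lowest in NonIR 1 and highest in NonIR 3. The ratio of Scgb1b27 to Scgb2b27 in CPM was 0.985, 0.757 and 0.845. On chromosome 7 of GRCm38, Scgb2b26 runs from 33943002 to 33945040, Scgb2b27 from 34011921 to 34013942 and Scgb1b27 from 34021483 to 34022881. Of 34 protein-coding secretoglobin genes, 6 reached 1 CPM in every library and 14 had 0 reads. Over all 48709 entries, 24.5% reached 1 CPM in every library and 25309 had 0 reads. The fourth, Scgb1c1, stood at 42.4 ± 16.6 CPM, far below the leading 3.

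Further products of exocrine cells were abundant. Bpifa2, the parotid secretory protein gene, stood at 9820, 12507 and 17528 CPM. Pip, the prolactin-induced protein of saliva and tears, stood at 4642, 11187 and 13009 CPM. Both were lowest in NonIR 1 and highest in NonIR 3. Wfdc12, a small protease inhibitor gene, stood at 609.7 ± 160.1 CPM, and Lpo, the antimicrobial enzyme lactoperoxidase, at 535 ± 144 CPM. Of the 20 genes listed as acinar products, Smgc among them, 14 reached 1 CPM in every library, against 24.5% of all entries. Whether acinar cells made each of them was not measured. Prb1, a proline-rich protein gene, had 0 reads.

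Of 21 genes listed as granular tubule products, 20 reached 1 CPM in every library, against 24.5% of all entries. Klk1b26, the kallikrein with the highest level here, stood at 13937, 22201 and 22845 CPM. It made up 44.2%, 44.2% and 43.5% of the kallikrein reads, so its share hardly moved while the family sum was 31504, 50218 and 52505 CPM. Klk1, true tissue kallikrein, which releases kinins, stood at 5831 ± 1529 CPM, Klk1b9 at 5671 ± 1537 CPM and Klk1b11 at 3699 ± 1151 CPM. Klk1 and Klk1b9 differed by less than their spread.

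Of 26 protein-coding kallikrein genes, 14 reached 1 CPM in every library, against 24.5% of all entries. The 14 lie between 43950664 and 44229618 on chromosome 7. NonIR 1 was the lowest library for 13 of the 14, and Klk1b22, at 179, 157 and 153 CPM, was the exception. These genes are close copies: between 66.1% (Klk1b24) and 89.9% (Klk1b16) of the 50-base windows of each occur in no other gene. The sources used here do not say how reads that match several genes were counted, so the level of each kallikrein is less certain than the family sum.

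Other granular tubule products lay over a wide range. Crisp3, a cysteine-rich secretory protein gene, stood at 16920.5, 20185 and 13748 CPM, with NonIR 3 the lowest. Egf, epidermal growth factor, stood at 922, 1494 and 1362 CPM, with NonIR 1 the lowest. Per kb, Egf stood at 227 ± 25.9 TPM. Ren1, which encodes renin, stood at 132 ± 15.4 CPM, and Kap, an androgen-regulated kidney gene, had 0 reads. Crisp1, a relative of Crisp3, stood at 189.6, 514 and 148 CPM and was high in NonIR 2 alone.

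Mup5 and Esp8 each led its own family of secreted proteins of chemical signalling. Mup5, a major urinary protein gene of the family that binds pheromones, stood at 1273, 4841 and 2196 CPM, highest in NonIR 2. It held 99.8% of the CPM of its family, in which 17 of 22 genes had 0 reads. Over all 48709 entries, 25309 had 0 reads. Of the windows of Mup5, 82.9% are unique, so both values of its family may depend on how shared reads were counted. Esp8, of the exocrine-secreted peptide family, stood at 165, 176 and 191 CPM and was nearly level across libraries. The next of the 14 Esp genes was Esp4 at 22.7 ± 5.77 CPM, and 5 had 0 reads.

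The other genes among the 25 were Sdc4, Ptp4a2, Tspan12, Actb, Tmem250-ps and Gm23935. Sdc4, a cell-surface proteoglycan gene, stood at 5436, 6208 and 6102 CPM. Ptp4a2, a membrane-bound phosphatase gene, stood at 6361, 6285 and 5422 CPM. With Tspan12 they were the 3 of the 25 with a coefficient of variation under 10%. Actb, cytoplasmic actin, often used as a reference, stood at 4146, 8974 and 8624 CPM, a ratio of 2.16 with NonIR 1 the lowest. Gm23935, annotated as a microRNA gene of 57 bases, had 112 ± 22.5 CPM. Its level per kb rests on that short length, and 0 of its windows are unique to it. Tmem250-ps, annotated as a long noncoding RNA, stood at 4470.3 ± 753 CPM.

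Genes of acinar fluid secretion and granule release lay lower, and their sum was steady at 2639, 2631 and 2596 CPM. All 15 on the list reached 1 CPM in every library, against 24.5% of all entries. Single genes moved more, and in different directions. Their median coefficient of variation was 12.4%, against 13.7% over the 6599 genes. Rab27a, a GTPase that docks secretory granules, led at 1305, 1202 and 1092 CPM. Slc12a2, the cotransporter that loads chloride into acinar cells, stood at 293, 297 and 211 CPM. Vamp8, a granule fusion protein gene, stood at 141, 284 and 341 CPM and was lowest in NonIR 1. The potassium channel Kcnn4 stood at 200.4 ± 27.8 CPM, the granule GTPase Rab3d at 184 ± 15.5 CPM and the water channel Aqp5 at 149, 173 and 191 CPM.

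The muscarinic receptors that start fluid secretion were far lower. Chrm1 stood at 11.7, 14.9 and 13.9 CPM and Chrm3 at 2.56, 4.14 and 3.22 CPM. Per kb these were 4.28 and 1.08 TPM, below the median of 6.20 TPM over genes with 1 CPM in every library.

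Chaperones of the endoplasmic reticulum, where secreted proteins fold, all reached 1 CPM in every library (18 of 18, against 24.5% of all entries). They summed to 5241, 5362 and 5471 CPM. The disulfide isomerase gene P4hb led at 1020.1 ± 139 CPM, with Herpud1, of protein quality control, at 669 ± 73.3 CPM and the chaperone Hspa5 at 569.6 ± 24.6 CPM. Spcs2 and Spcs3, subunits of the signal peptidase that trims secreted proteins, were among the 10 steadiest genes with a mean of at least 100 CPM. Spcs2 stood at 344, 347 and 352 CPM.

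The sum of duct genes was steady at 2459, 2336 and 2531 CPM, while the median coefficient of variation of the single genes was 14.3%. Of 16, 15 reached 1 CPM in every library, against 24.5% of all entries. The keratin gene Krt18 led at 645 ± 48.4 CPM, next to Tfcp2l1, a duct transcription factor, at 662, 565 and 602 CPM. Scnn1b, of the epithelial sodium channel, stood at 101, 141 and 139 CPM, lowest in NonIR 1. All 7 genes of ionocytes, rare cells rich in proton pumps and chloride channels, reached 1 CPM in every library, against 24.5% of all entries. Foxi1, the transcription factor of these cells, stood at 17.4, 26.7 and 30.4 CPM.

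Basal and myoepithelial genes were detected. Krt14 stood at 51.2 ± 2.58 CPM and Krt5 at 10.8 ± 2.99 CPM. Acta2, smooth muscle actin of myoepithelial cells and vessels, stood at 409.9, 417 and 337 CPM and the myosin gene Myh11 at 73.5, 119 and 111 CPM, and Oxtr, the oxytocin receptor, had 0 reads. Among transcription factors, Bhlha15 (Mist1), of secretory cells, stood at 189.8, 167 and 189.6 CPM, Ehf at 224 ± 34.2 CPM and Sox9 at 79.7 ± 14.2 CPM. The estrogen receptor Esr1 stood at 9.97, 18.0 and 10.4 CPM.

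Markers of muscle, fat and red cells, which could be taken with the gland, were low, while those of mucous cells were mixed. Of 8 mucous cell genes, which mark the neighbouring sublingual gland, 4 reached 1 CPM in every library, against 24.5% of all entries. The 8 genes summed to 93.3, 128 and 141 CPM, and 3 had a mean of at least 10 CPM. Agr2, a disulfide isomerase of mucin-making cells, stood at 50.8, 88.2 and 86.7 CPM, but the gel mucin Muc19 stood at 1.92 ± 0.0992 CPM, Muc5b had at most 1 read in a library, and Dmbt1 had 0. Skeletal muscle genes summed to 3.08, 4.48 and 4.16 CPM, with 0 reads for Myh1, Myh2 and Myh4. Adipocyte genes summed to 4.26, 12.7 and 2.82 CPM, of which Cfd, the fat cell protease adipsin, was 1.71, 8.78 and 1.02 CPM. Red cell genes summed to 18.7, 55.4 and 42.6 CPM, with the globin Hbb-bs at 8.46, 33.1 and 23.9 CPM, lowest in NonIR 1, and Hba-a2 at 0 reads. Of the windows of Hba-a2, 13.1% are unique, and of those of Hba-a1 and Hbb-bs 32.5% and 34.2%, so these values may depend on how shared reads were counted.

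**Figure D4:**
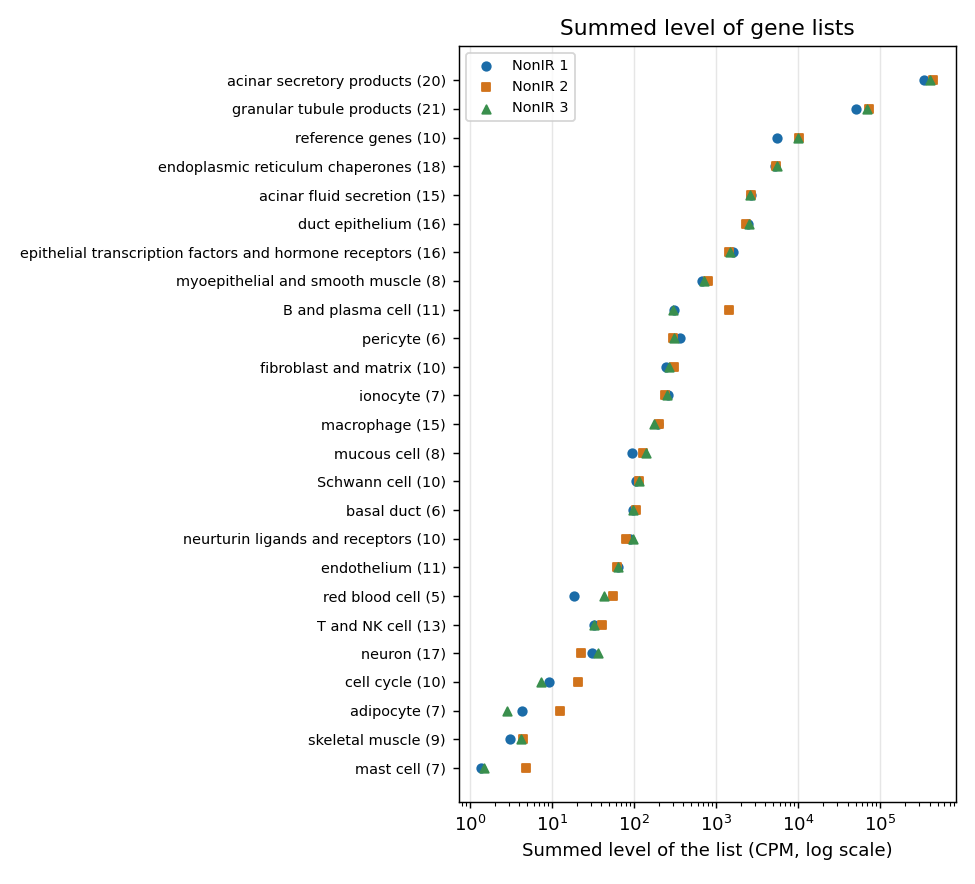
Summed level of 25 of the 27 gene lists in CPM (x axis, log scale), with the number of genes measured in brackets (y axis) and a marker for each library. Neutrophil genes, at or near 0, and the sex-linked genes are not drawn. The list of acinar products leads at a mean of 394825 CPM, of which Smgc holds 116502 CPM. NonIR 2 stands apart for B and plasma cell genes at 1439 CPM. Which cells made these transcripts was not measured.

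Most neuronal transcripts were near the limit of detection, and the median over the list was 0.214 CPM. Of 17 genes, 1 reached 1 CPM in every library, against 24.5% of all entries. That was Nos1, neuronal nitric oxide synthase, at 24.9, 20.5 and 26.4 CPM. Nos1 held most of the list's sum of 30.7, 22.4 and 35.9 CPM, and which cells made it was not measured. Stmn2 stood at 1.05, 0.591 and 2.12 CPM and the tubulin Tubb3 at 1.11, 0.169 and 1.41 CPM. These 3 were lowest in NonIR 2. Phox2a and Npy had 0 reads. Of 10 Schwann cell genes, 5 reached 1 CPM in every library, against 24.5% of all entries. Mbp, a myelin gene, stood at 8.20, 9.54 and 11.0 CPM. Erbb3, at 44.7 ± 3.96 CPM, and Sox10, at 25.6 ± 5.14 CPM, led the list and are also made by gland epithelium.

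Neurturin, the ligand that binds Gfra2 and signals through the receptor kinase Ret, was the cargo of a vector used in the irradiated glands. Here Nrtn stood at 2.23, 5.15 and 6.83 CPM, lowest in NonIR 1. Ret stood at 28.3, 18.5 and 32.1 CPM, lowest in NonIR 2, and Gfra2 at 0.328, 0.844 and 0.785 CPM. The artemin coreceptor Gfra3 was higher than Gfra2 in every library, at 18.4, 13.3 and 18.1 CPM, and also per kb, at 17.4 ± 5.00 against 0.366 ± 0.121 TPM. The ligand genes Gdnf and Artn had 0 reads. Ncam1, an adhesion molecule that can also bind GDNF, stood at 38.9, 40.9 and 39.8 CPM.

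The sums of fibroblast, endothelial and pericyte genes had coefficients of variation of 11.0%, 1.15% and 11.3%. All 10 fibroblast genes reached 1 CPM in every library, against 24.5% of all entries, and 8 of them were highest in NonIR 2. NonIR 2 was the highest library for 28.0% of the 6599 genes. The matrix proteoglycan Dcn led at 155, 192 and 157 CPM. The collagens Col1a2 and Col3a1 stood at 19.1 ± 3.14 and 12.7 ± 3.13 CPM. The 11 endothelial genes summed to 64.2, 62.8 and 63.9 CPM, but single genes varied more. Their median coefficient of variation, over those with a mean of at least 1 CPM, was 28.4%. Genes with 1 CPM in every library had a median of 16.0%. Vwf, the clotting factor of endothelium, stood at 9.25, 21.5 and 10.8 CPM, high in NonIR 2. Rgs5, a pericyte gene, stood at 346, 282 and 287 CPM, far above the next pericyte gene, Abcc9, at 5.24 ± 0.460 CPM.

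Macrophage genes summed to similar levels in the 3 libraries, at 195, 199 and 174 CPM. Of 15, 14 reached 1 CPM in every library, against 24.5% of all entries. The median coefficient of variation of those with a mean of at least 1 CPM was 14.7%. The protease Ctss led at 52.5, 47.2 and 37.3 CPM and lysozyme Lyz2 stood at 33.6, 33.3 and 25.6 CPM. The complement genes C1qb and C1qc stood at 19.2 ± 1.88 and 19.9 ± 1.03 CPM. T and NK cell genes summed to 32.5, 40.6 and 32.9 CPM, with the kinase Lck at 10.5, 10.3 and 10.4 CPM. Mast cell genes summed to 1.38, 4.81 and 1.49 CPM with Fcer1a at 0 reads, and no neutrophil gene had more than 1 read in a library, with Ly6g, S100a8, Mmp8 and Retnlg at 0.

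Plasma cell transcripts were several times higher in NonIR 2. Igha, the heavy chain of immunoglobulin A, stood at 97.4, 482 and 96.7 CPM. Igkc, the kappa light chain, stood at 90.7, 476 and 99.2 CPM, and Jchain, which joins antibody dimers, at 75.1, 452 and 64.4 CPM. For each, NonIR 1 and NonIR 3 were close and NonIR 2 alone was high. The ratio of Igha to Igkc was 1.07, 1.01 and 0.975. The lambda chain gene Iglc1 stood at 3.67, 40.4 and 7.77 CPM, and the plasma cell chaperone Mzb1 at 0.525, 2.87 and 0.392 CPM. Of the windows of Mzb1, 24.3% are unique, so its values may depend on how shared reads were counted.

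Ighm and Cd79b did not have this order. Ighm, the heavy chain of immunoglobulin M, stood at 36.1, 22.1 and 34.1 CPM, and Cd79b, of the B cell receptor, at 1.77, 1.60 and 1.26 CPM, and NonIR 2 was the highest for neither. Cell cycle genes were low and summed to 9.18, 20.6 and 7.30 CPM, with Cdk1, the mitotic kinase, at 1.57, 6.08 and 1.33 CPM and Mki67 at 0.853, 2.36 and 0.471 CPM, both highest in NonIR 2. The interferon-induced GTPase genes Iigp1 and Gbp2b were highest in NonIR 2 as well, at 7.41, 24.7 and 4.71 CPM and 15.2, 46.8 and 9.42 CPM. Car3, a carbonic anhydrase of fat and muscle, stood at 13.4, 39.6 and 3.06 CPM. Whether these sets share a source was not tested.

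The genes that varied most were taken by the ratio of highest to lowest library, so their ratios are a description. Of the 25, the highest library was NonIR 3 for 13 and NonIR 2 for 12, and NonIR 1 was the lowest for 20. The last of the 25, Dcpp2, had a ratio of 4.53, and the next gene 4.47. Over the 6599 genes the median ratio was 1.30, and 107 genes (1.62%) exceeded 3.

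**Figure D5:**
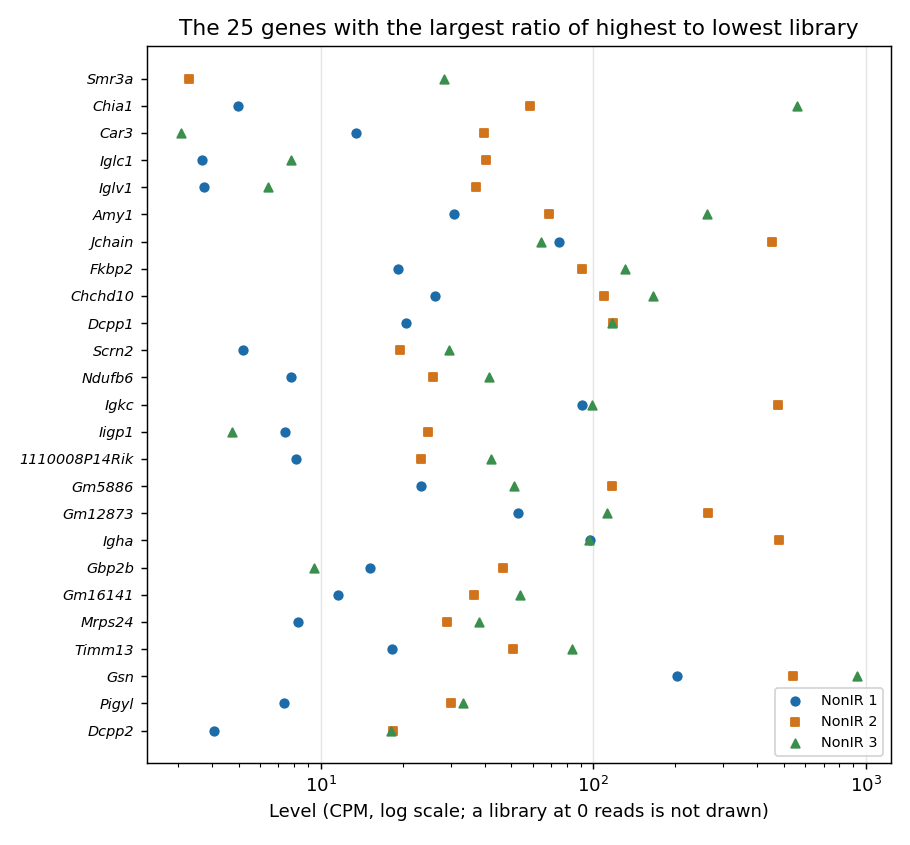
Level in CPM (x axis, log scale) of the 25 genes with the largest ratio of highest to lowest library (y axis), with a marker for each library. Smr3a has 0 reads in NonIR 1, which is not drawn. Chia1 ranges from 4.98 to 559 CPM, and the immunoglobulin genes have NonIR 2 to the right of both other libraries.

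Among the 25, the salivary protein genes Chia1, Amy1 and Smr3a were highest in NonIR 3. Chia1, acidic mammalian chitinase, stood at 4.98, 58.7 and 559 CPM, a ratio of 112. Amy1, salivary amylase, stood at 30.9, 68.7 and 262 CPM. Smr3a, a submaxillary gland androgen-regulated protein gene, stood at 0, 3.29 and 28.3 CPM, and was at least 144-fold higher in NonIR 3 than the limit of 3 reads in NonIR 1. Outside the 25, the cystatin Cst10 had the same order, at 0.197, 3.80 and 20.7 CPM, and the nuclease Dnase1 stood at 10.7, 8.02 and 26.4 CPM, with NonIR 2 the lowest. Of the windows of Smr3a, 54.4% are unique, so its values may depend on how shared reads were counted.

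Dcpp1, a secreted protein gene with close copies, stood at 20.5, 118 and 117 CPM, level between NonIR 2 and NonIR 3. Dcpp2 and Dcpp3 were lowest in NonIR 1 too, at 4.07, 18.4 and 18.1 and 1.38, 6.42 and 7.53 CPM. Between 53.5% and 57.0% of the windows of these 3 genes are unique, so they may share reads.

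Genes of general cell function in this set had NonIR 1 lowest and NonIR 3 highest. Fkbp2, a prolyl isomerase of the endoplasmic reticulum, stood at 19.2, 90.6 and 131 CPM. The mitochondrial protein genes Chchd10, Ndufb6, Timm13 and Mrps24 had the same order, with Chchd10 at 26.4, 109 and 165 CPM. Gsn, the actin-severing protein gelsolin, stood at 202, 539 and 925 CPM. The 25 genes had a median exon length of 1575 bases, against 4513 over the 6599.

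At the other end, Soat1, an enzyme of cholesterol ester storage, stood at 288, 287 and 287 CPM. The cytokine receptor gene Lifr stood at 758, 769.7 and 778 CPM. The other steadiest genes were Fam114a2, Zfhx3, Rrn3, Arl1, BC004004, Srpk1, Spcs2 and Spcs3, and among the 10 the coefficient of variation ran from 0.340% to 1.32%.

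Some genes that every cell uses were listed at low values or at 0. Gapdh, a glycolytic enzyme, stood at 22.8 ± 5.22 CPM and the ribosomal protein gene Rpl13a at 4.39, 5.07 and 4.55 CPM. The 82 ribosomal protein genes together held 0.450% of the reads. Of 13 mitochondrially encoded protein genes, mt-Co2, mt-Atp8, mt-Nd3 and mt-Nd4l were listed at 0 in all 3 libraries, and mt-Co3 and mt-Atp6 had at most 2 reads in a library. mt-Nd1 stood at 502 ± 71.0 CPM and mt-Cytb at 417 ± 52.4 CPM. All windows of mt-Nd1 and mt-Cytb are unique, against 0.136% for mt-Co3, 0.475% for mt-Atp6, 42.6% for Rpl13a and 72.2% for Gapdh. Ribosomal protein genes with under 50% unique windows had a median of 22.8 CPM and 38.4 TPM (22 genes), and those with at least 90% had 25.1 CPM and 18.3 TPM (14 genes). Low or 0 values of such genes describe the deposited counts and may not describe the gland.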

How the data were processed

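RNA of submandibular glands was sequenced. Per the labels' protocols, column-purified RNA was copied to full-length cDNA with a SMART-Seq v4 kit, made into Nextera XT libraries and run on a NextSeq 500. The series text names another instrument and other aligners, and the labels were followed. The submitters' processing notes list STAR 2.5.2a and GRCm38.p3. No source used here states the counting tool or its use of strand. All results use the raw read counts per gene deposited by the authors. Their deposited normalised signal (17957 entries) served as an alternative, and on testing was the count times a constant per library (100% whole reads within 0.01).

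Spike-in and transgene rows stayed out of totals (at most 7 reads in a library). edgeR 4.0.16 (R 4.3.3) gave TMM factors and the dispersion of an intercept-only model after filterByExpr, tested on simulated data, and DESeq2 1.42.0 gave size factors. Log2 differences used CPM + 0.5. Gene types, positions and union exon lengths came from GENCODE mouse M21 (GRCm38), and entries without a length held 0.0136% of reads. Library pairs were compared over genes with at least 10 reads. Unique windows are 50-base stretches of a gene's longest GENCODE transcript found in no transcript of another gene. Promoters are the RefSeq entry nearest the GENCODE start.

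Named genes were the 25 highest per kb, the 25 with the largest ratio (mean at least 10 CPM), the 10 steadiest (mean at least 100 CPM), the 6 given markers, up to 6 of the highest members of each of 27 lists, list members at 0 reads and up to 4 of the highest of the secretoglobin, kallikrein, Dcpp, Esp and Smr/Prol families. Genes outside this rule (Wfdc12, Lpo, Chrm1, Chrm3, Esr1, Cst10, Dnase1, Klk1b16, Klk1b21, Klk1b22, Klk1b24, Ren1, Crisp1, Muc5b, Gapdh, Rpl13a and the mitochondrial genes) were chosen after their values were seen, as were the length and GC bins, the unique windows, the motifs and the ribosomal and mitochondrial summaries. Members and lists were chosen with earlier results of these data known. Some genes of these lists are not reported here by name.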

Additional observations from a re-analysis of the deposited data

Results flagged for a closer look

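Among the rows that are not mouse genes, the row for beta-lactamase, a bacterial resistance gene carried by many plasmids, held 2, 5 and 5 reads in NonIR 1, NonIR 2 and NonIR 3. Its highest value, 5, lies above the 3 reads that a count of 0 allows. The LacZ row held 0, 2 and 0 reads. The source of these reads was not tested.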

How the results depend on the processing

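No paired analysis was possible because 1 group was described and no groups were compared. Leaving out each library in turn, the share of the 10 most read genes ran from 45.0% to 47.4% (46.0% with all 3), and the genes at 1 CPM in every library from 12069 to 12318 (11917 with all 3). The median number of genes holding 50% of the reads was 15, ran from 14 to 24 with a library left out (24 without NonIR 2, 23 without NonIR 3), and was 5 per kb of exon. The count of genes with a ratio over 2, an alternative chosen after seeing the data, ran from 44 (without NonIR 1) to 437 (without NonIR 2), was 322 without NonIR 3, and was 526 with all 3. Fewer libraries can only lower this count. The biological coefficient of variation ran from 0.153 to 0.236. The sums of 3 lists moved by more than their SD under the deposited normalised values, to 2705 for acinar fluid secretion, 65.7 for endothelium and 5528 for endoplasmic reticulum chaperones, as did the 10 steadiest genes. With the longest transcript as length, the same 25 genes were the highest per kb and 9 levels moved by more than their SD, of which Bpifa2 moved most, from 13406 to 22689 TPM. Of the 25 most variable genes, 24 were shared under each other scaling tried. With 3 libraries an SD is itself imprecise, and levels near 0.2 CPM rest on about 3 reads.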
